A study of Homo sapiens
Mus musculus with 17 samples.

Results

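Tumours treated with alpelisib alone were compared with tumours treated with nintedanib alone, head to head, in the tumour cells and in the host. The members are 9 of the 17 libraries of the series, 4 from alpelisib tumours and all 5 from nintedanib tumours, chosen by treatment in the sample titles and not by any measured value. All tumours were grown from the human bladder cancer line VM-CUB-1 in athymic nude (Foxn1nu) mice and taken after 7 days of treatment. Alpelisib was given at 25 mg/kg and nintedanib at 40 mg/kg. The titles call 3 nintedanib tumours responders and 2 non-responders, whereas the series description states the reverse numbers, so the titles were followed. The labels give the tissue as PDX although the tumours came from 1 cell line, and they leave unsaid how many mice bore the tumours of each group. Each library came from 1 tumour, so the p-values measure the spread between tumours, with technical spread included. Tumours that shared a mouse would not be independent. The series asks how the 2 drugs act together on tumours that resist nintedanib, and the direct comparison of the single drugs shows which genes separate them. No vehicle library enters it, so a gene raised by alpelisib and a gene lowered by nintedanib cannot be told apart here.

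Alpelisib, also known as BYL719, blocks the alpha form of the catalytic subunit of PI3K, a lipid kinase that acts below growth factor receptors and switches on AKT. Active AKT keeps FOXO transcription factors out of the nucleus, so FOXO target genes are a usual readout of PI3K inhibition. Nintedanib inhibits the receptors for VEGF, FGF and PDGF, which endothelial cells, fibroblasts and pericytes use, and its best known action in a tumour is on new blood vessels. In a xenograft of a human line, human reads mostly come from tumour cells and mouse reads from the host's vessels, connective tissue and immune cells, and nude mice lack a thymus and so most mature T cells.

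The 9 libraries held 11020767 to 25349248 recovered human reads and 2271764 to 7000102 mouse reads. All 5 epithelial markers checked in the human reads, KRT5, KRT14, KRT17, EPCAM and TP63, were present in every library, and so were the endothelial markers Pecam1, Cdh5 and Tie1 in the mouse reads. Some libraries stood apart. The share of mouse reads in Rn45s and Lars2, a measure of ribosomal RNA carry-over, was 44.1% in alpelisib 3 against 2.93% to 7.999% in the other alpelisib tumours. Lymphocyte and natural killer cell transcripts were high in nintedanib non-responder 2 and responder 1, and skeletal muscle transcripts in non-responder 1. In bulk RNA, fewer cells of a type and less RNA per cell cannot be told apart. Values are the authors' normalized counts, listed for alpelisib 1 to 4, then nintedanib responders 1 to 3 and non-responders 1 and 2. Differences are log2 fold changes of alpelisib minus nintedanib with their standard error (SE) from limma, on values plus 1, and passing means a Benjamini-Hochberg adjusted p below 0.05 among the tested genes of that species.

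The 2 drugs were hardly separated by single genes after correction. Of 14533 human genes tested, 0 passed with limma (0.0%), 0 with edgeR and 1, on the higher side, with DESeq2 (0.00688%), and 282 (1.94%) had an unadjusted p under 0.05. Of 11831 mouse genes, 1 passed with limma (0.00845%), 1 with edgeR and 70 with DESeq2, of which 46 were higher with alpelisib (0.389%) and 24 lower (0.203%). An unadjusted p under 0.05 was found for 862 mouse genes (7.29%), 463 higher (3.91%) and 399 lower (3.37%). The mouse count rested on single libraries, since 24 genes passed with limma without alpelisib 1, 2 without nintedanib responder 1, 2 without responder 3, and 0 without any of the other 6. Libraries of the 2 drugs did not overlap at all for 176 mouse genes on the higher side (1.49%) and 146 on the lower (1.23%), against 59 (0.406%) and 54 (0.372%) human genes. Of the members of the 22 human and 26 mouse gene lists used below, 0 passed with limma, so the list counts below rest on unadjusted p and on sign and are descriptions. The host held the larger share of genes that separated the drugs, by each of these counts.

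The mouse gene that passed was Clca5, a member of the family of calcium-activated chloride channel regulators, chosen here after its values were seen because its level is below that set for named genes. Its normalized counts were 46.7, 35.8, 35.4 and 35.6 in the alpelisib tumours, 8.81, 6.31 and 8.58 in the nintedanib responders, and 6.19 and 4.84 in the non-responders. The lowest alpelisib tumour was thus far above the highest nintedanib tumour. The log2 fold change was 2.33 ± 0.30, with a limma adjusted p of 0.0415, and 11 of 24 alternative analyses called it, with adjusted p from 5.23e-07 to 0.998. The human counterpart of this gene is CLCA2, made by keratinocyte-like epithelium. Human CLCA2 was at 195 ± 44.1 normalized counts (SD, n = 4) with alpelisib and 243 ± 86.9 (SD, n = 5) with nintedanib, a log2 fold change of -0.25 ± 0.30 with overlapping libraries.

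Genes of the host's blood vessels were mostly higher with alpelisib than with nintedanib. Of 29 endothelial identity genes tested, 25 were higher and 4 lower by sign (48.8% of all mouse genes were higher and 51.2% lower), with a median log2 fold change of 0.68 against -0.01 for all mouse genes. At an unadjusted p under 0.05, 15 were higher and 1, Lyve1, a marker of lymphatic endothelium and some macrophages, was lower, and 0 passed after adjustment with limma. Of 29 tip cell and Notch genes, which mark the leading cells of sprouting vessels and the signal that patterns them, 25 were higher, the median was 0.69, and 20 had an unadjusted p under 0.05, all of them higher. DESeq2 called 3 of the endothelial and 8 of the tip cell and Notch genes. The libraries did not overlap for 3 endothelial genes, Cldn5, Tie1 and Nos3, and for 7 tip cell and Notch genes, Angpt2, Dll4, Nes, Apold1, Hey1, Dll1 and Hes1. Of all mouse genes, 1.49% did not overlap on the higher side, and 3.91% were higher at an unadjusted p under 0.05. DESeq2 called 0.389% of them higher.

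Cldn5, the main tight junction protein of endothelium, was at 70.0, 322, 276 and 248 normalized counts with alpelisib. It was at 54.9, 35.6 and 31.2 in the responders and at 59.4 and 39.9 in the non-responders. Alpelisib 1 sat close to the nintedanib range, and the other 3 alpelisib tumours were several times above it. The log2 fold change was 2.19 ± 0.39 (limma adjusted p = 0.157). Tie1, a receptor of endothelial cells, was at 181, 261, 303 and 330.2 with alpelisib, at 82.6, 179.6 and 147 in the responders, and at 135 and 64.1 in the non-responders. Its ranges only just failed to touch, and the log2 fold change was 1.20 ± 0.30 (limma adjusted p = 0.379).

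Dll4, the Notch ligand of tip cells, was at 79.4, 232, 264 and 249 normalized counts with alpelisib. The responders had 39.3, 57.9 and 52.2 and the non-responders 71.8 and 55.6. The highest nintedanib tumour was again just below alpelisib 1 and far below the other 3, and the log2 fold change was 1.76 ± 0.33 (limma adjusted p = 0.157). Angpt2, a ligand of the Tie2 receptor that sprouting endothelium releases, was at 165, 416, 324 and 234 against 123, 119 and 67.8 in the responders and 82.9 and 59.3 in the non-responders. Its log2 fold change was 1.62 ± 0.30 (limma adjusted p = 0.157). Nes, the intermediate filament nestin, which new vessels make, was at 157, 171, 263 and 235 against 35.9, 74.6 and 78.8 in the responders and 85.4 and 24.2 in the non-responders. Nes differed by 1.90 ± 0.35 (limma adjusted p = 0.157), and here alpelisib 1 did not stand apart from alpelisib 2.

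Esm1 and Apln, secreted products of tip cells, varied widely among the alpelisib tumours themselves. Esm1 was at 17.1 normalized counts in alpelisib 1 and at 278, 401 and 309.9 in the other 3, against 44.7, 32.7 and 28.1 in the responders and 25.98 and 15.7 in the non-responders. Apln was at 112 in alpelisib 1 and at 615, 487 and 439 in the others, against 149.7, 117 and 109 in the responders and 151 and 62.9 in the non-responders. Alpelisib 1 thus lay within the nintedanib range for both genes, whereas the other 3 lay above it. The log2 fold changes were 2.46 ± 0.73 for Esm1 and 1.62 ± 0.43 for Apln (limma adjusted p = 0.489 and 0.461). Without alpelisib 1, 2 endothelial and 5 tip cell and Notch genes passed with limma, against a background of 0.186% of mouse genes passing as higher and 0.0169% as lower.

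The vessel result also depended on the nintedanib libraries. Without non-responder 2 and responder 1, a setting chosen after the data were seen, the endothelial median was 0.38 and 7 genes were higher at an unadjusted p under 0.05. The tip cell and Notch median was 0.57 and the count 15 in that setting, which gave 419 higher mouse genes at that p against 463. Leaving out single libraries moved the endothelial count between 8, without alpelisib 4, and 18, without alpelisib 1, and the tip cell and Notch count between 16 and 19. Summed endothelial levels were 5141 to 9923 normalized counts with alpelisib and 4061 to 6981 with nintedanib, so these sums overlapped, through alpelisib 1. The other 3 alpelisib tumours, from 8689 upward, were above every nintedanib tumour. For 26 of the 29 endothelial and 19 of the 29 tip cell and Notch genes, the mouse gene had more reads over the 9 libraries than the human gene of the same name.

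**Figure D1:**
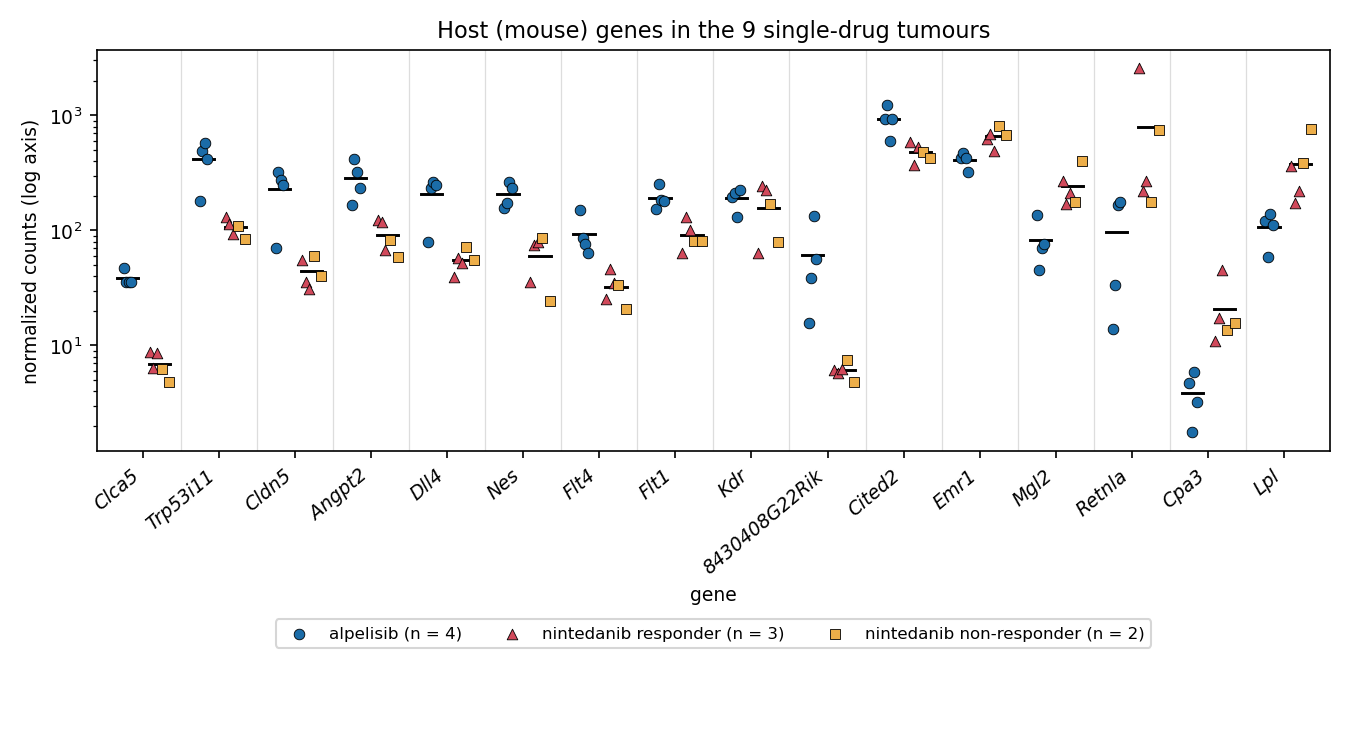
Host (mouse) genes in each of the 9 tumours, as normalized counts on a log axis, with a bar at each group mean. Clca5 is separated by drug in all 9 libraries, Kdr overlaps, and alpelisib 1 is the lowest of the alpelisib tumours for Cldn5, Dll4 and Angpt2.

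Among the receptors that nintedanib blocks, Flt1 and Flt4 did not overlap between the drugs and Kdr did, and differences between receptors were not tested. Of all mouse genes, 1.49% did not overlap on the higher side. Flt1, the decoy-like VEGF receptor 1, was at 153, 253, 183 and 179.7 normalized counts with alpelisib, at 63.7, 130.2 and 101 in the responders, and at 80.4 and 81.0 in the non-responders. Flt4, VEGF receptor 3, was at 149, 85.7, 75.5 and 63.1 against 25.1, 45.9 and 35.1 in the responders and 33.4 and 20.6 in the non-responders. Their log2 fold changes were 1.08 ± 0.23 and 1.49 ± 0.29 (limma adjusted p = 0.326 and 0.224). DESeq2 called both (adjusted p 0.0120 and 0.00296), as it did 0.389% of all mouse genes on the higher side. For Flt4, alpelisib 1 was the highest of all 9 libraries, whereas it was the lowest alpelisib tumour for Esm1 and Apln. Kdr, the main signalling receptor for VEGF, was at 195, 212, 129.7 and 226 against 63.0, 242 and 226 in the responders and 171 and 79.8 in the non-responders. All 4 alpelisib values lay inside the nintedanib range, and the log2 fold change was 0.45 ± 0.38 (limma adjusted p = 0.869). The PDGF receptors Pdgfra (-0.29 ± 0.30) and Pdgfrb (0.07 ± 0.30) and the FGF receptor Fgfr1 (-0.06 ± 0.24) overlapped between the drugs. Over the 8 tested receptors the median was 0.47, and it was 0.03 without alpelisib 1.

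Pericytes and smooth muscle cells wrap vessels. Of 15 genes of these cells, 13 were higher with alpelisib (48.8% of all mouse genes were), with a median log2 fold change of 0.32. On the higher side 2 had an unadjusted p under 0.05, or 6 without alpelisib 1. Over all mouse genes that side went from 463 (3.91%) to 560 in that setting. Mcam, the adhesion molecule CD146 of pericytes and endothelium, was at 423, 865, 782 and 1061 normalized counts against 274, 551 and 351 in the responders and 463 and 271 in the non-responders. Kcnj8, a potassium channel subunit that marks pericytes, was at 49.8, 173, 179 and 147 against 79.9, 59.7 and 36.7 in the responders and 58.1 and 27.8 in the non-responders. In both genes alpelisib 1 lay inside the nintedanib range and the other 3 above it. The log2 fold changes were 1.02 ± 0.29 and 1.31 ± 0.39 (limma adjusted p = 0.484 and 0.489). Fibroblast and matrix genes, by contrast, showed no common direction, with 11 of 28 higher, 17 lower, a median of -0.07 and 0 at an unadjusted p under 0.05.

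Further host genes with the smallest p on the higher side were Trp53i11, N4bp3 and Epha2. Trp53i11, named for its induction by p53, was at 179, 492, 571 and 421 normalized counts against 131, 113 and 93.6 in the responders and 109 and 83.4 in the non-responders. Its log2 fold change was 1.85 ± 0.30 (limma adjusted p = 0.157), and it passed in the fit of all 17 libraries (0.0338% of mouse genes passed there as higher and 0 as lower). N4bp3 was at 65.4, 76.9, 137 and 136 against 25.0 to 43.3 with nintedanib, a log2 fold change of 1.51 ± 0.27. Epha2, an ephrin receptor, was at 42.0, 58.6, 49.5 and 52.6 against 10.9 to 25.7 with nintedanib, a log2 fold change of 1.48 ± 0.27. Neither overlapped between the drugs. For Epha2 the mouse reads numbered 314 over the 9 libraries and the human EPHA2 reads 14606, and the part that human reads of conserved sequence play in the mouse value was not tested. The human EPHA2 gene differed by 0.07 on the log2 scale.

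FOXO target genes were followed in both genomes. In the tumour, 19 of 22 FOXO targets were higher with alpelisib (53.7% of all human genes were), with a median log2 fold change of 0.22 against 0.02 for all human genes. At an unadjusted p under 0.05, 5 were higher (1.23% of all human genes were) and 0 lower, namely FBXO32, PDK4, CITED2, BCL6 and C10orf10, and 0 passed after adjustment with limma, edgeR or DESeq2. In the host, 13 of 20 were higher (48.8% of all mouse genes were), with a median of 0.16 against -0.01 for all mouse genes. At an unadjusted p under 0.05, 4 were higher (3.91% of all mouse genes were) and 2 lower (3.37%). DESeq2 called 2 of the host list, both higher (0.389% of all mouse genes were), and limma called 0. The count in the tumour was 2 without alpelisib 2 and 7 without alpelisib 1, while 179 of all human genes on the higher side became 137 and 362.

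PDK4, which restrains the oxidation of glucose carbon in mitochondria, was at 16.97, 72.1, 31.7 and 44.5 normalized counts in the alpelisib tumours. The responders had 14.8, 21.99 and 3.46, and the non-responders 13.0 and 3.29. Only alpelisib 1 fell within the nintedanib range, and the log2 fold change was 1.91 ± 0.56 (limma adjusted p = 1). FBXO32, the ubiquitin ligase atrogin-1, was at 451, 793, 577 and 729 against 462, 375 and 423 in the responders and 295 and 283 in the non-responders. Its log2 fold change was 0.79 ± 0.22 (limma adjusted p = 1), with responder 1 just above alpelisib 1.

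DEPP1, a progesterone-induced decidual protein and known FOXO target, was read in both tables under older symbols. In the host, 8430408G22Rik was at 15.6, 38.5, 132 and 55.8 normalized counts with alpelisib, at 6.10, 5.74 and 6.24 in the responders and at 7.42 and 4.84 in the non-responders. The nintedanib tumours hardly varied, and each alpelisib tumour was above all of them, with a log2 fold change of 2.75 ± 0.49 (limma adjusted p = 0.157). DESeq2 called this host gene (adjusted p 2.48e-06), and it passed with limma in the fit of all 17 libraries (adjusted p 0.0436). In the tumour, C10orf10 was at 83.6, 177, 109 and 239 against 191, 75.3 and 34.6 in the responders and 60.6 and 36.2 in the non-responders. Here responder 1 lay among the alpelisib tumours, and the log2 fold change was 1.11 ± 0.45 (limma adjusted p = 1).

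CITED2, a brake on hypoxia-driven transcription, was higher by value with alpelisib in both genomes, and it passed with limma in neither. DESeq2 called host Cited2 (adjusted p 0.0150) but not tumour CITED2. Host Cited2 was at 921, 1230.0, 603 and 939 normalized counts with alpelisib, at 587, 368 and 528 in the responders and at 485 and 426 in the non-responders, without overlap. Tumour CITED2 was at 1626, 2399, 1561 and 2506 against 1987, 1195 and 1184 in the responders and 1052 and 1275 in the non-responders, where responder 1 overlapped. The log2 fold changes were 0.92 ± 0.22 in the host and 0.60 ± 0.22 in the tumour (limma adjusted p = 0.351 and 1). The transcriptional repressor BCL6 differed by 0.71 ± 0.27 in the tumour and Bcl6 by 0.85 ± 0.29 in the host, both with overlap. Human CITED2 and BCL6 had more reads than the mouse genes of the same name, 16260 against 6598 and 13176 against 3867 over the 9 libraries, and whether human reads reached the mouse values was not tested. Host Klf2 and Irs2, listed as FOXO targets as well, were lower with alpelisib by -0.82 and -1.46, so the host list did not move as one.

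Of the parts of the PI3K pathway itself, 8 of 29 human genes were higher with alpelisib and 21 lower, with a median of -0.08. PIK3IP1, an inhibitor of PI3K at the membrane, was at 1255, 1519, 1297 and 2147 normalized counts against 1478, 907 and 739.7 in the responders and 965 and 949 in the non-responders, a log2 fold change of 0.63 ± 0.22. PHLPP2, a phosphatase that removes an activating mark from AKT, was at 150.3, 120.0, 101 and 90.7 against 148, 251 and 220.3 in the responders and 194 and 139.8 in the non-responders, a log2 fold change of -0.71 ± 0.24. Both overlapped between the drugs. PIK3CA, which encodes the target of alpelisib, was at 305, 357, 517 and 285 against 249.8, 600.4 and 311 in the responders and 325 and 285 in the non-responders. Its log2 fold change of 0.08 ± 0.26 turned to -0.10 without alpelisib 3 and to -0.03 without responder 1, so no direction can be given. Values for PIK3CB and PIK3CD were -0.34 ± 0.22 and -0.41 ± 0.29, and for the FGF receptors FGFR1 and FGFR3 -0.21 ± 0.20 and 0.12 ± 0.21 (limma adjusted p = 1 for each).

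**Figure D2:**
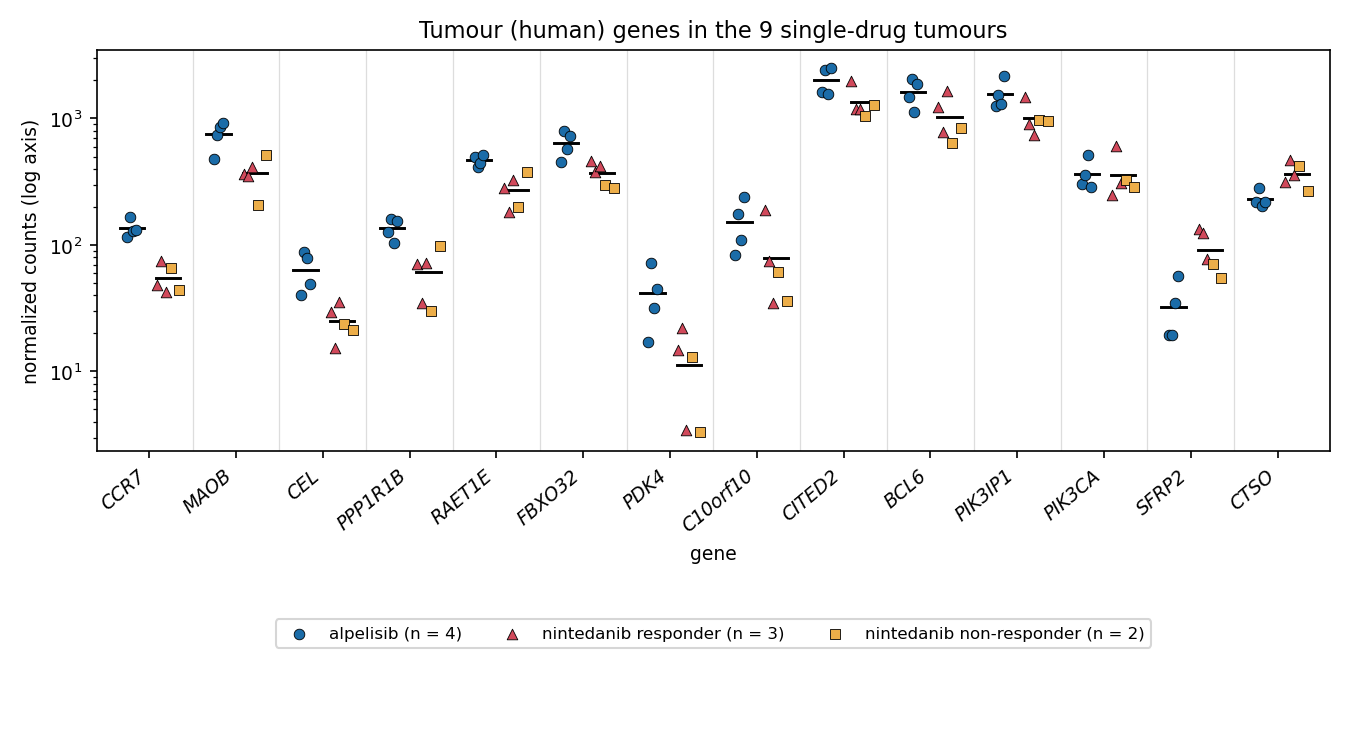
Tumour (human) genes in each of the 9 tumours, as normalized counts on a log axis, with a bar at each group mean. CCR7, CEL, PPP1R1B and RAET1E are separated by drug, while the FOXO targets FBXO32, PDK4, C10orf10, CITED2 and BCL6 overlap in 1 or more libraries.

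FOS, an immediate early gene switched on by ERK signalling, and its mouse counterpart Fos were higher by value with alpelisib in both genomes. Host Fos was at 325, 342, 336 and 358 normalized counts with alpelisib, at 312, 98.7 and 118 in the responders, and at 114 and 134 in the non-responders. Tumour FOS was at 1284, 1159.8, 858 and 1262 against 1294, 492 and 412 in the responders and 328 and 456 in the non-responders. In both genomes responder 1 was at or near the alpelisib level and the other 4 nintedanib tumours were far below it. The log2 fold changes were 1.27 ± 0.29 and 1.10 ± 0.32 (limma adjusted p = 0.334 and 1), and host Fos passed with limma without responder 1. Host reads of Fos numbered 2313 and human reads of FOS 8170 over the 9 libraries, and the part of human reads in the host value was not tested. Spry1, a feedback inhibitor of receptor kinases in the host, was at 162, 208, 163 and 196 against 188, 84.3 and 61.6 in the responders and 94.0 and 81.0 in the non-responders. Its log2 fold change was 0.93 ± 0.28 (limma adjusted p = 0.489), with responder 1 again among the alpelisib tumours. Of the 22 tumour genes of ERK pathway output, 15 were higher (53.7% of all human genes were), with a median of 0.16. On the higher side 2 had an unadjusted p under 0.05, or 6 without non-responder 2 and responder 1. Over all human genes that side went from 179 (1.23%) to 700 in that setting. Of the 20 host genes of receptor kinase feedback, 15 were higher (48.8% of all mouse genes were), with a median of 0.18. At an unadjusted p under 0.05, 5 were higher (3.91% of all mouse genes were).

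The human genes with the smallest p on the higher side were CCR7, MAOB, CEL, PPP1R1B, RAET1E and FBXO32, the last given above. CCR7, a chemokine receptor, was at 116, 165, 129 and 130.5 normalized counts with alpelisib, at 48.4, 75.3 and 42.3 in the responders, and at 66.0 and 44.4 in the non-responders. The groups were well apart, the log2 fold change was 1.30 ± 0.25, and DESeq2 alone called it (adjusted p 0.0140, against 1 with limma and a range of 0.0140 to 1 over its alternatives). The mouse gene Ccr7 had 974 reads against 903 human reads over the 9 libraries and differed by -0.14, in the other direction. MAOB, a mitochondrial monoamine oxidase, was at 481, 738, 851 and 918 against 364, 349 and 414 in the responders and 208 and 518 in the non-responders, a log2 fold change of 1.03 ± 0.26. RAET1E, a ligand of the natural killer cell receptor NKG2D, was at 413 to 515 with alpelisib and 183 to 377 with nintedanib, a log2 fold change of 0.82 ± 0.23. CEL and PPP1R1B differed by 1.30 ± 0.33 and 1.26 ± 0.34, with no overlap between the drugs.

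Squamous differentiation genes of the tumour were higher with alpelisib for 27 of 33 members, with a median of 0.34, but the nintedanib tumours differed widely among themselves. Their summed level ran from 111759 to 410611 normalized counts in the nintedanib tumours and from 227772 to 323447 in the alpelisib tumours, which lay inside that range. KRT4, a keratin of moist squamous epithelium, was at 17046, 15115, 26179 and 23455 against 6831, 6958 and 11091 in the responders and 6794 and 26544 in the non-responders. Non-responder 2 was thus the highest of all 9, and the log2 fold change was 1.01 ± 0.36. The list had 2 genes at an unadjusted p under 0.05, KRT4 and CRNN, both higher. On the higher side it had 9 without responder 1, and 18 without non-responder 2 and responder 1, where the median was 0.89. The background grew as well, from 179 of 14533 human genes on the higher side to 368 and 700 in those settings. The median was -0.09 without non-responder 1, so the direction of the list rested on that library.

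Smaller tumour differences with no overlap were seen for ELF3, SCD and ASNS, none of which passed. Of all human genes, 0.406% did not overlap on the higher side and 0.372% on the lower. The unadjusted limma p of SCD was 0.0586. ELF3, a luminal epithelial transcription factor, was at 3547, 3660.4, 3658 and 3564 normalized counts against 3371, 2470.1 and 2182 in the responders and 3326 and 1688 in the non-responders, a log2 fold change of 0.52 ± 0.21. SCD, a fatty acid desaturase, was at 54109, 41386, 41752 and 39928 against 23477 to 38153 with nintedanib, a log2 fold change of 0.47 ± 0.23. ASNS, the asparagine synthetase induced by amino acid stress, was lower with alpelisib at 481, 494, 499.6 and 434 against 503 to 895, a log2 fold change of -0.47 ± 0.19. HILPDA, a lipid droplet protein induced by hypoxia, was higher by 0.67 ± 0.21, with responder 1 at 887 among alpelisib values of 799 to 1060.5. In the human reads 30 of 31 cell cycle genes and 28 of 28 ribosomal protein genes were higher by sign, with medians of 0.20 and 0.30 and 0 at an unadjusted p under 0.05 in either list. Without alpelisib 1 these counts were 8 and 2, all on the higher side, and the medians 0.40 and 0.48. At that p, 179 of all human genes on the higher side became 362 in that setting.

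Among the human genes named for the smallest p on the lower side, SFRP2, NCKAP1L and CELF2 had more mouse than human reads under the same name. SFRP2, a secreted Wnt modulator of fibroblasts, was at 19.4, 19.4, 35.0 and 56.5 normalized counts with alpelisib against 133, 123 and 76.9 in the responders and 70.3 and 54.3 in the non-responders. Alpelisib 4 overlapped non-responder 2, and SFRP2 differed by -1.52 ± 0.37, on 637 human against 3793 mouse reads over the 9 libraries. NCKAP1L, a blood cell actin regulator, differed by -0.89 ± 0.29, and CELF2, an RNA-binding protein, by -1.05 ± 0.32. ZEB2, a driver of the mesenchymal state, also had more mouse reads and was lower without overlap, by -0.74 ± 0.25. Whether mouse reads of conserved sequence reached these human values was not tested. Also named on this side were PHLPP2, given above, and CTSO, a lysosomal protease. CTSO had mostly human reads, 2991 against 641, and was at 217, 280.2, 202 and 219.5 against 317, 474 and 357 in the responders and 419 and 268 in the non-responders, a log2 fold change of -0.66 ± 0.20. Of 12 host cell markers looked for in the human reads, 5 were higher and 7 lower, with a median of -0.08. VWF, an endothelial gene of that list, was higher with alpelisib by 0.93 ± 0.27 without overlap, on 2739 human and 1243 mouse reads.

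Host macrophage, complement and chemokine genes were mostly lower with alpelisib than with nintedanib. Of 22 macrophage genes, 19 were lower, with a median log2 fold change of -0.58, and 7 had an unadjusted p under 0.05, all lower. Of all mouse genes, 51.2% were lower by sign and 3.37% were lower at that p. Emr1, the F4/80 antigen of mouse macrophages, was at 423, 470.3, 426 and 320.5 normalized counts with alpelisib, at 623, 684 and 489 in the responders and at 809 and 676 in the non-responders, without overlap. It differed by -0.67 ± 0.19 (limma adjusted p = 0.484). Mgl2, a lectin of alternatively activated macrophages and dendritic cells, was at 137, 45.5, 69.6 and 76.9 against 267, 171 and 211 in the responders and 178 and 399 in the non-responders. It differed by -1.60 ± 0.32 (limma adjusted p = 0.233). Retnla, made by alternatively activated macrophages, was at 14.01, 33.2, 165 and 177 with alpelisib, and at 178 or more with nintedanib, reaching 2583 in responder 1. Mgl2 passed in the fit without alpelisib 1. Without non-responder 2 and responder 1, the macrophage median was -0.15 and 6 genes had an unadjusted p under 0.05 on the lower side. In that setting 399 of all mouse genes on the lower side became 292. Neutrophil genes were lower for 4 of 6 members and dendritic cell genes for 5 of 8, with medians of -0.10 and -0.11 and 0 and 1 at an unadjusted p under 0.05. Both of these medians were above 0 without non-responder 2 and responder 1, at 0.018 and 0.11.

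Complement genes were lower for 16 of 16 members, with a median of -0.74 and 9 at an unadjusted p under 0.05, or 2 without non-responder 2 and responder 1 and 3 without alpelisib 1. Over all mouse genes the lower side went from 399 to 292 and 435 in those settings. C3, the central complement component, was at 744, 678, 1275 and 1734 normalized counts against 4123, 2879.9 and 1369 in the responders and 1428 and 4614 in the non-responders. Alpelisib 4 overlapped the lowest nintedanib tumours, and the log2 fold change was -1.31 ± 0.40 (limma adjusted p = 0.511). Chemokine and cytokine genes were lower for 22 of 24 members, with a median of -0.66 and 7 at an unadjusted p under 0.05. Cxcl12, which guides leukocytes and is made by stroma, was at 109, 226, 250.0 and 551 against 992, 952 and 232 in the responders and 793 and 686 in the non-responders. Ccl9, a myeloid chemokine, was at 151, 419, 653 and 549 against 1317, 742 and 486 in the responders and 1179 and 1403 in the non-responders. Responder 3 was the low nintedanib tumour for both, and the log2 fold changes were -1.43 ± 0.47 and -1.29 ± 0.42. Without non-responder 2 and responder 1, 0 chemokine genes had an unadjusted p under 0.05 on the lower side and the median was -0.35.

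Mast cell genes were lower for 6 of 8 members, with a median of -1.05 and 4 at an unadjusted p under 0.05 on the lower side. Without non-responder 2 and responder 1 the count was again 4 and the median -0.82, while 399 of all mouse genes on that side became 292. When only genes averaging 50 or more were tested, 2 members entered and their median was 0.14. Cpa3, the mast cell carboxypeptidase, was at 4.67, 1.75, 5.90 and 3.24 normalized counts with alpelisib, at 10.8, 17.2 and 45.2 in the responders and at 13.6 and 15.7 in the non-responders. The chymases Cma1 and Mcpt4 were at 17.1 to 37.2 and 10.6 to 40.5 with alpelisib and at 41.9 to 66.3 and 43.3 to 101 with nintedanib. None of the 3 overlapped between the drugs. The log2 fold changes were -2.04 ± 0.49, -1.10 ± 0.27 and -1.34 ± 0.36 (limma adjusted p = 0.351, 0.351 and 0.467). Cpa3 rests on 142 reads in all 9 libraries together. Kit, the stem cell factor receptor that mast cells carry, was higher by 0.91, and was 1 of the 2 members higher by sign.

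Lymphocyte and natural killer cell genes were lower for nearly all members, 12 of 12 natural killer cell and 9 of 10 T and B cell genes, with medians of -1.47 and -1.27. Those medians rested on 2 nintedanib tumours. Summed T and B cell genes were at 2922 normalized counts in responder 1 and 1733 in non-responder 2, against 158 to 221 in the other 3 nintedanib and 117 to 400.0 in the alpelisib tumours. Summed natural killer cell genes were at 1361 and 2555 in the same 2 tumours, against 268 to 391 and 200 to 468 in the others. Without those 2 libraries the medians were -0.31 and 0.09. Igj, the joining chain of secreted antibodies, was at 2339 in responder 1 and 709 in non-responder 2, and at 23.5 or less in the other 7. The T cell marker Cd3e was at 0 in 3 libraries.

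**Figure D3:**
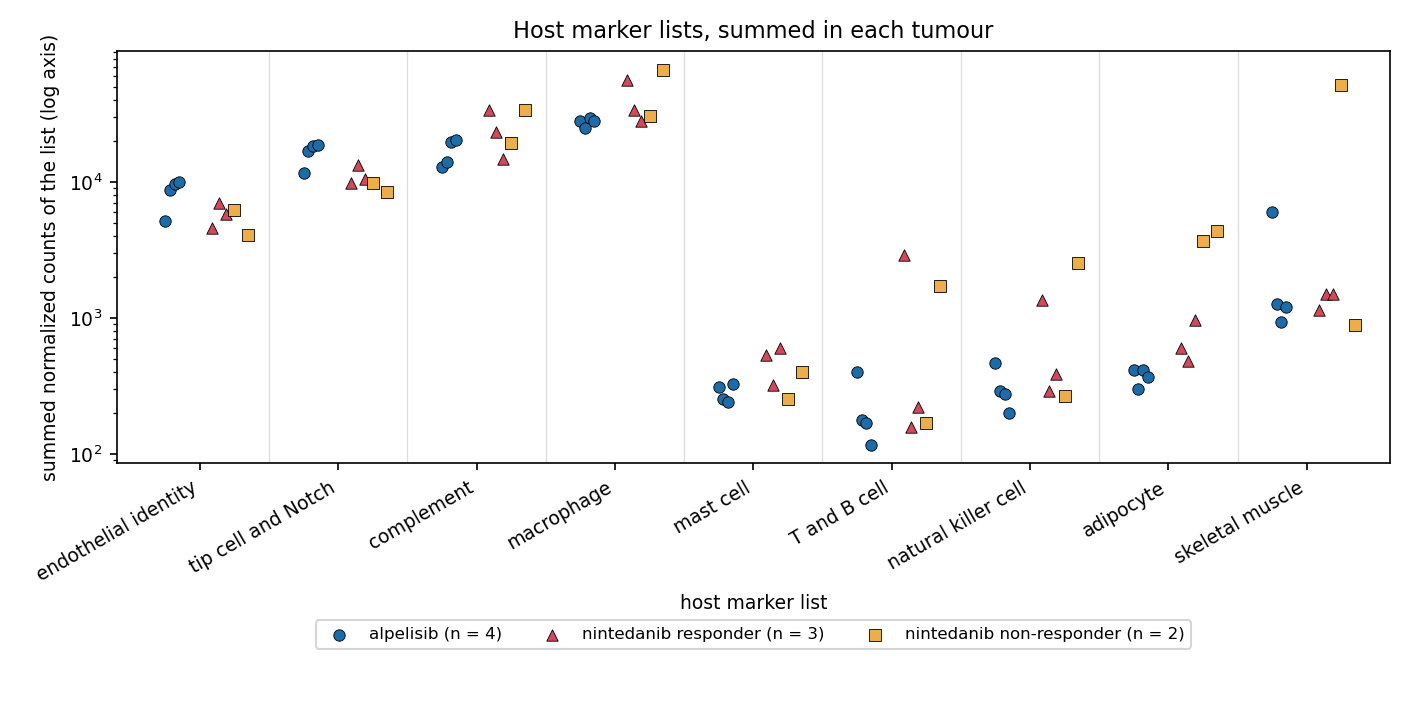
Summed normalized counts of 9 host marker lists in each of the 9 tumours, on a log axis. The T and B cell and natural killer cell sums stand high in nintedanib responder 1 and non-responder 2, the adipocyte sums in both non-responders and the skeletal muscle sum in non-responder 1.

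Adipocyte genes were lower for 8 of 8 members, with a median of -2.55, and both non-responders stood high. The summed level was 299.9 to 414 normalized counts with alpelisib, 485 to 961 in the responders, and 3716 and 4356 in the non-responders. Adipoq, the fat cell hormone adiponectin, was at 0, 0, 1.18 and 0 with alpelisib, at 0, 5.16 and 27.3 in the responders, and at 246 and 287 in the non-responders. Adipoq and Plin1 were each at 0 in 4 of the 9 libraries. Lpl, the lipase that releases fatty acids from lipoproteins, was at 121, 58.6, 138 and 111 against 363, 172 and 221 in the responders and 388 and 758 in the non-responders, without overlap, and differed by -1.69 ± 0.38 (limma adjusted p = 0.334). The list median was -0.96 against the responders alone and -5.53 against the non-responders alone. Skeletal muscle genes were summed to 51996 in non-responder 1, against 896 to 1512 in the other nintedanib and 934 to 6070 in the alpelisib tumours. Their median log2 fold change was -0.15, and 1.30 without non-responder 1. How much fat or muscle next to each tumour was sampled was not tested.

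Other host genes with the smallest p on the lower side were Emb, Eps8, Tspan32 and Fmo1. Emb, the adhesion molecule embigin, was at 79.4, 81.3, 108 and 94.7 normalized counts against 252, 259.9 and 131 in the responders and 252 and 271 in the non-responders, without overlap. It differed by -1.31 ± 0.23 (limma adjusted p = 0.157) and passed without responder 3, its lowest nintedanib tumour. Human EMB had more reads than the mouse gene, 4238 against 1774 over the 9 libraries, and differed by -0.31. Eps8, an actin regulator, and Tspan32, a tetraspanin of blood cells, differed by -1.52 ± 0.31 and -1.54 ± 0.35, each with 1 alpelisib tumour above the lowest nintedanib tumour. Fmo1, a flavin-containing monooxygenase, differed by -1.63 ± 0.37, without overlap.

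**Figure D4:**
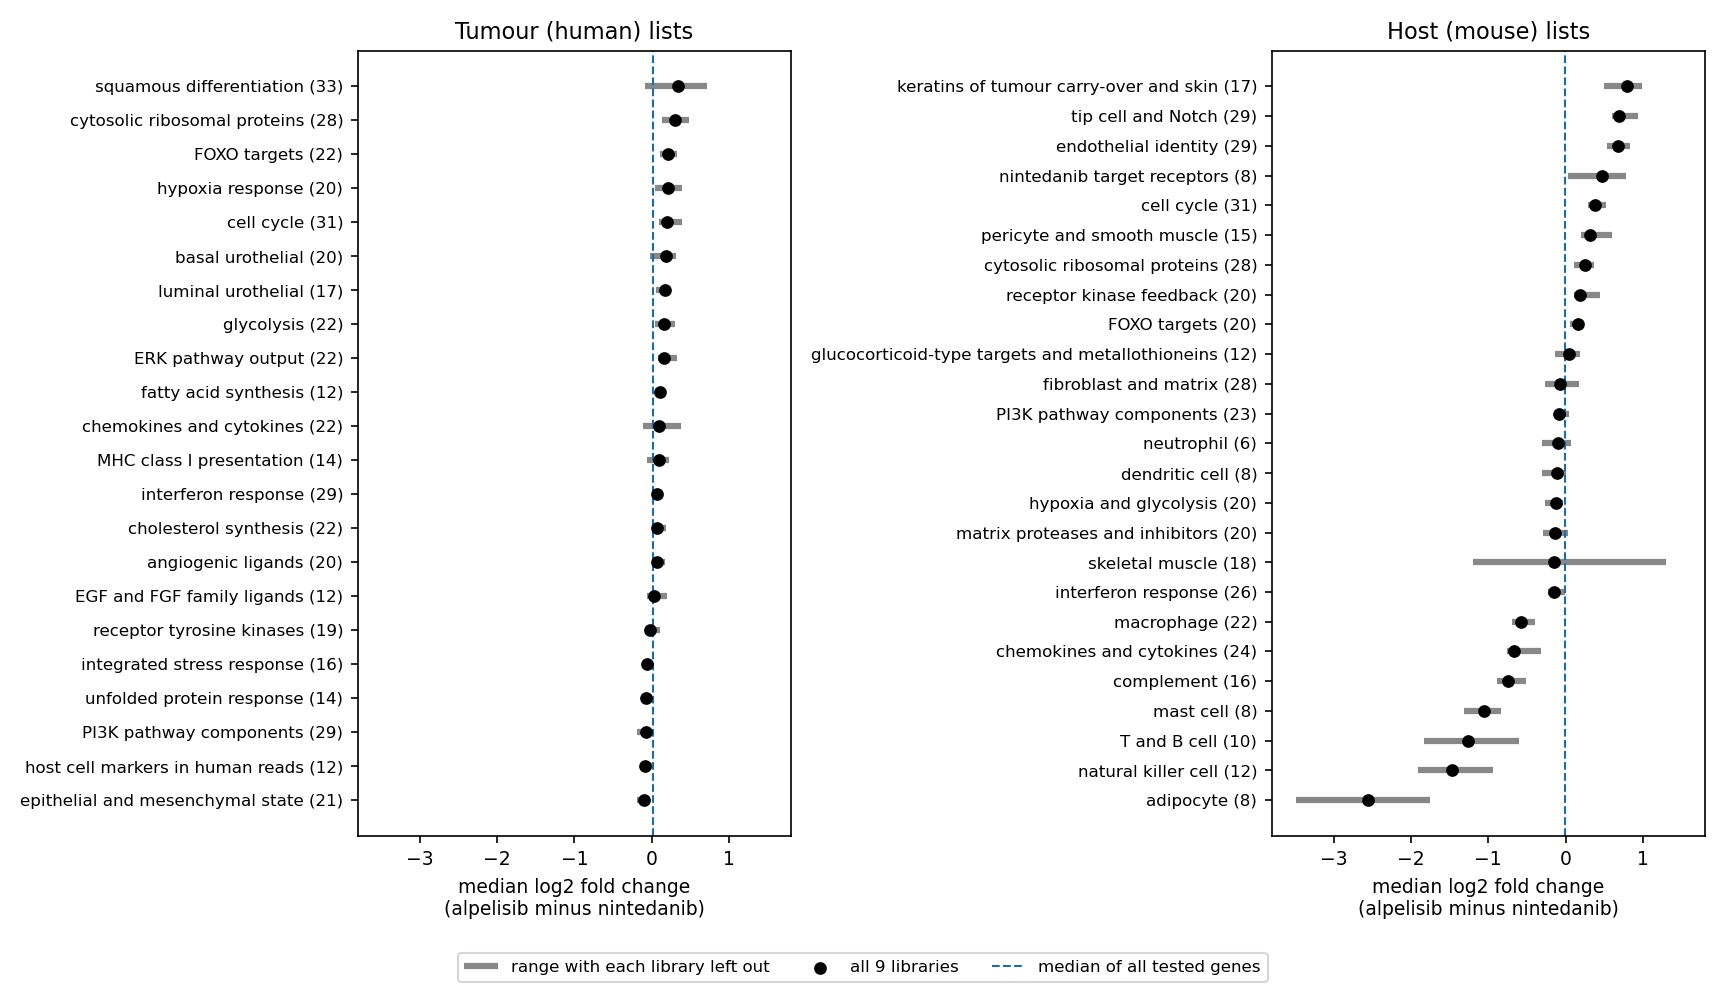
Median log2 fold change of each gene list with at least 5 tested members (number tested in brackets), with the range over fits that leave out 1 library each and a dashed line at the median of all tested genes. Host lists spread from -2.55 for adipocyte genes to 0.79 for keratins in mouse reads, and human lists from -0.10 to 0.34.

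Some host lists sat on genes with far more human than mouse reads. Keratins in the mouse reads were higher with alpelisib for 17 of 17 members, with a median of 0.79 and 8 at an unadjusted p under 0.05. Of the 16 with a human gene of the same name, 0 had more mouse than human reads. Krt6a, a keratin of activated skin, was at 840.4, 101, 764 and 129 normalized counts against 77.9, 66.5 and 104 in the responders and 43.3 and 88.3 in the non-responders. It had 1936 mouse reads against 903793 human KRT6A reads, and human KRT6A differed by 0.37 in the same direction. Cell cycle genes in the mouse reads were higher for 28 of 31, with a median of 0.38 and 8 at an unadjusted p under 0.05, and 0 of 31 had more mouse than human reads. That count of 8 was 1 without alpelisib 4 and 14 without non-responder 2, while 463 of all mouse genes on the higher side became 328 and 422. The part of human reads in either list was not tested. Host ribosomal protein genes were higher for 28 of 28, with a median of 0.25 and 5 at an unadjusted p under 0.05, or 1 without alpelisib 3, the library with the high ribosomal RNA share. The count was 9 without alpelisib 1 and 10 without non-responder 2 and responder 1. Over all mouse genes the higher side went from 463 to 391, 560 and 419 in these settings, in that order.

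The share of all reads that mapped to mouse genes, a rough measure of host content, was lower on average with alpelisib. It was 13.4%, 14.4%, 23.8% and 16.3% in the alpelisib tumours, 25.6%, 20.7% and 19.7% in the responders, and 17.2% and 23.5% in the non-responders. The means were 16.98% ± 4.71 (SD, n = 4) and 21.4% ± 3.29 (SD, n = 5), with an exact two-sided permutation p of 0.159. With Rn45s and Lars2 left out they were 14.2% ± 1.03 and 18.2% ± 2.75, with an exact permutation p of 0.0317, or 0.127 adjusted over the 4 measures tried. Alpelisib 4 at 15.2% still overlapped responder 3 at 15.0%. With 126 orders of 4 and 5 libraries, the smallest p possible is 0.0159.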

How the data were processed

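PolyA RNA of xenograft tumours was sequenced as paired ends, 1 library per tumour, per the labels' protocols. Per the submitters' processing notes, Bowtie, TopHat and DESeq2 were used against hg19 and mm10, and the series text adds separate mapping to each genome. Not given in the sources used here were the counter, annotation and strand setting. Each deposited value is a normalized count: the authors divided read counts by 1 size factor per library, as the whole reads recovered below show, which gives a signal per gene, for 23368 human and 23337 mouse gene symbols. In the 9 libraries compared, 100% of values lay within 0.01 of a whole number of reads once divided by the smallest step, and these reads were used for edgeR and DESeq2.

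Genes with a mean of at least 10 over all 17 libraries were tested, 14533 human and 11831 mouse. The deposited values were used as they are, plus 1, on the log2 scale, with limma-trend (limma 3.58.1, R 4.3.3), 1 mean for alpelisib and 1 for nintedanib over the 9 libraries, and Benjamini-Hochberg adjustment per species. The fit was first tested on simulated data with known changes. The mouse share was compared by exact permutation. Within each group no library copied another.

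The members, the 22 human and 26 mouse lists and the tests were chosen with earlier results of these data known. Genes were named by rule: those that passed and reached a mean of 50 in an arm, filled to 6 per direction by the smallest p, then up to 4 members of a list with a called member and up to 2 of other lists, the drug targets, and Rn45s and Lars2. Clca5, Nes, Apold1, Apln, Esm1, Bcl6, Mcpt4, Lyve1, C10orf10, CITED2, BCL6 and CLCA2, and list members given by fold change alone, were named after their values were seen. A gene that the rule names is not reported here.

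Alternatives were pseudocounts, filters, TMM scaling, edgeR 4.0.16, limma-voom, DESeq2 1.42.0, all 17 libraries in the fit, separate means for responders and non-responders, either of them alone, a replicate block, the ribosomal RNA share as a covariate, and leaving out libraries. Sequences and coordinates are not used here.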

Additional observations from a re-analysis of the deposited data

Results flagged for a closer look

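Libraries far from the rest of their drug group, by the gap to the nearest library over the range, were found in 19 of 162 groups of 4 or 5 values. The critical values used are set to let chance flag about 1 in 20 groups, a rate that was not measured for these values.

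Nintedanib responder 1 stood high among the nintedanib tumours for 8 genes. Host Fos was at 311.6 normalized counts against 98.67 to 134.2 in the other 4, host Spry1 at 188.3, host Fmo1 at 105.7 and host Retnla at 2583. In the tumour reads it had FOS at 1294, HILPDA at 886.6, C10orf10 at 190.6 and CITED2 at 1987. For FOS, Fos, Spry1, HILPDA, C10orf10 and CITED2 these values lay at or near the alpelisib level.

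Responder 2 stood high for PIK3CA, at 600.4, and for COL3A1, at 935.3, a collagen gene whose reads are mostly mouse. Responder 3 stood low for Emb, at 131, and high for Cpa3, at 45.23. Non-responder 2 stood high for KRT4, at 26540.

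Among the alpelisib tumours, alpelisib 1 stood high for Clca5, at 46.69 against 35.38 to 35.84, and for SCD, at 54110. Alpelisib 3 stood high for Eps8, at 48.35, for Adipoq, at 1.179 against 0 in the other 3, and for the share of mouse reads in Rn45s and Lars2, at 44.1%. Alpelisib 4 stood high for Fmo1, at 25.9.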

How the results depend on the processing

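Over 25 alternatives each, the human count of genes past the threshold was 0 except with DESeq2 (1), against non-responders only (2) and without non-responder 2 and responder 1 (3). The mouse count of 1 became 0 with no filter, with a mean of at least 50, with separate responder and non-responder means, against responders only and with the ribosomal RNA share as a covariate, 4 with all 17 libraries in the fit and against non-responders only, and 70 with DESeq2. Leaving out 1 library gave 0 to 24. Clca5, the gene that passed, did not enter the tests with a mean of at least 50, so it could not be called there. The cause of the other changes was not tested.

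With the replicate number as a block, 0 mouse and 0 human genes passed. Same-numbered libraries share only a number: their deviations correlated from -0.427 to 0.00722 in human and from -0.122 to 0.0803 in mouse reads.

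Among the genes recomputed under each alternative, direction reversed for PIK3CA, FGFR3, Kdr, Pdgfra, Pdgfrb, Fgfr1 and Pik3ca, none of which passed. Against responders only, PIK3CA was at -0.016 and Pdgfrb at -0.33, and against non-responders only FGFR3 was at -0.026, Pdgfra at 0.35 and Fgfr1 at 0.42. Without non-responder 2 and responder 1, PIK3CA was at -0.14, Kdr at -0.18 and Pik3ca at -0.11. Pdgfrb (mouse) was at -0.0353 with edgeR, -0.0185 with DESeq2 and -0.0394 with the block. Leaving out 1 library gave ranges of -0.10 to 0.29 for PIK3CA, -0.0061 to 0.23 for FGFR3, -0.18 to 0.26 for Pdgfrb, -0.21 to 0.061 for Fgfr1 and -0.040 to 0.22 for Pik3ca.

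The mouse share of reads, alpelisib against nintedanib, differed by -4.37 percentage points. It was -4.01 without Rn45s and Lars2 and from -6.64, without alpelisib 3, to -3.18, without alpelisib 1, with 1 library left out. The mouse tables hold fewer reads than the human.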
